A study of Mus musculus with 8 samples.

Results

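The NR4A genes Nr4a1, Nr4a2 and Nr4a3 encode orphan nuclear receptors, and they were represented by 10 of the 45037 probe sets in the array table: 1 probe set for Nr4a1, 6 for Nr4a2 and 3 for Nr4a3. A probe set was taken when the platform annotation gave it a member as its only gene symbol. All 8 arrays held RNA from germinal centre B cells of C57BL/6 mice. The mice had been given NP-KLH (the hapten NP joined to a carrier protein) with alum as adjuvant under the skin, and lymph nodes were taken 12 days later. The cells of both groups were sorted as B220 positive, CD38 negative and CD95 positive, and were split further on their CXCR4 and CD83 staining into cells of the light zone and of the dark zone, with 4 biological replicate arrays per zone. The labels do not say how many mice stand behind a replicate.

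The 3 receptors are transcription factors for which no natural ligand is established. Their genes are rapidly and briefly induced by antigen receptor and other signals, so their RNA is often read as a sign of recent stimulation. The proteins, also called NUR77 (Nr4a1), NURR1 (Nr4a2) and NOR1 (Nr4a3), bind DNA through closely similar zinc finger domains. In B cells they are known as products of antigen receptor signalling that restrain the response when T cell help is missing. The light zone of the germinal centre is where B cells test their receptors on antigen and receive T cell help, while the dark zone is classically the site of division and antibody gene mutation.

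The 250 bases before the annotated start of each gene are shown because all 3 carry the same signal-responsive letters while the array values of the genes differ. The sequences are RefSeq's for build GRCm38.p6, 5′ to 3′ on the strand of the gene, and the table held a match for all 3 genes. Capitals mark the half-site TGACG of the cAMP response element, the site of CREB, on either strand (CGTCA on the other).
Nr4a1 (chr15:101266596-101266845, plus strand): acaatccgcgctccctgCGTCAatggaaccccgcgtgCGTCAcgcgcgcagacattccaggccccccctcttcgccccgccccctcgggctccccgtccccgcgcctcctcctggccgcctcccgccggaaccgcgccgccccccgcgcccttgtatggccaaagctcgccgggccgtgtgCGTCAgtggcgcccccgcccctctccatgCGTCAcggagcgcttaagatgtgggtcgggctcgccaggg
Nr4a2 (chr2:57124004-57124253, minus strand): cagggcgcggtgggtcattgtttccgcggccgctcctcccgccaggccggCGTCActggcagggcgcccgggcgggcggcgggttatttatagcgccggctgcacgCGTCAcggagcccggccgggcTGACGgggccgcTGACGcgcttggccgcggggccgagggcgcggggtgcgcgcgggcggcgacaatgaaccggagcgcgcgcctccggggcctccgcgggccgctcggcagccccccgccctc
Nr4a3 (chr4:48045055-48045304, plus strand): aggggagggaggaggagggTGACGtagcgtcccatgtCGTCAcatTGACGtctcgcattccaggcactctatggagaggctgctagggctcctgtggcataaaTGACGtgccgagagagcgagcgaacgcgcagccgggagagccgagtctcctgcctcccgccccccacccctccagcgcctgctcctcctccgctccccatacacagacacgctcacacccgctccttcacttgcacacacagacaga
Each of these windows held 4 half-sites. At least 1 was found in 17.8% of 32851 RefSeq windows of the same length and at least 4 in 0.137%. The half-site lies inside the full element TGACGTCA, which none of the 3 windows held and 1.55% of all windows did. The EGR motif GCGNGGGCG occurred once before Nr4a1 and once before Nr4a2, and in 4.7% of all windows. The NR4A monomer site AAAGGTCA was in none of the 3 and in 1.34% of all windows. The windows were rich in G and C, at 74.4% for Nr4a1, 80% for Nr4a2 and 63.6% for Nr4a3 against a median of 52.4%. A match is a string of letters and not a shown site of binding.

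Expression values were intensities summarised by RMA, a method that corrects background, normalizes arrays to one distribution and combines the probes of a set. They have no absolute unit. Median intensities of the arrays lay between 27.3 and 28.1. Every difference is the mean of the dark zone arrays minus the mean of the light zone arrays on the log2 scale, so a negative value means higher in the light zone. The labels word the light zone gate as CXCR4 high and CD83 low, the reverse of the usual definition, but mRNA of both genes went with the zone titles: Cd83 differed by -2.32 and Cxcr4 by 0.96. The groups follow the titles. Of the listed markers of B cells and germinal centre B cells, 10 of 10 measured lay above the filter described next. An example is Ms4a1, the gene of the B cell surface protein CD20. Their levels were not all alike in the zones. By the limma test used below, 3 were higher in the dark zone, namely Gcsam (1.48), Mybl1 (0.76) and S1pr2 (0.26). Another 2 were higher in the light zone, Fas (-0.23) and Rgs13 (-0.21). That is 50%, against 43.9% of all tested genes. A gene was tested if its brightest probe set reached the median of all probe sets, an intensity of 27.8, and 10547 genes did. All 3 receptors were among them.

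Nr4a1 was the receptor gene that separated the zones by a wide margin. Its intensity was 227, 280, 189 and 216 in light zone replicates 1 to 4. In dark zone replicates 1 to 4 it was 75.7, 77.0, 78.7 and 86.8. Every light zone array lay above every dark zone array, and the lowest light zone value was more than double the highest dark zone value. The means were 228.2 ± 38.1 (SD, n = 4) and 79.5 ± 4.99 (SD, n = 4), which is a difference of -1.51 (standard error, SE, 0.10, limma adjusted p = 3.1e-07). On the linear scale this was 2.84-fold higher in the light zone, with a 95% interval of 2.43 to 3.32. Only 76 of the 10547 genes (0.721%), Nr4a1 included, were higher in the light zone by as much. In the dark zone Nr4a1 was still above most of the table, at the 68.8th percentile of probe set means. Leaving out any 1 array moved the difference between -1.59 and -1.40. A single probe set represents Nr4a1, so no second measurement within these arrays checks it.

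Nr4a2 stayed at the low end of the measurable range in both zones. Its brightest probe set, 1433422_at, had an intensity of 28.8, 26.4, 29.1 and 28.2 in light zone replicates 1 to 4. The dark zone replicates gave 30.9, 32.4, 28.1 and 31.7. The groups overlapped, because dark zone replicate 3 lay below 3 of the light zone arrays. The difference was 0.13 (SE 0.06, 95% interval -0.012 to 0.27, limma adjusted p = 0.13), so a difference larger than 1.21-fold was outside the interval. This does not show that the level was the same in both zones. Differences of dim genes are understated on these arrays. The other 5 probe sets of Nr4a2 were dimmer, with mean intensities from 9.97 to 28.7 in the 2 groups. Their differences ran from 0.0059 to 0.073, and none passed in a fit over all 45037 probe sets (limma adjusted p = 0.63 to 0.97). All 6 Nr4a2 probe sets overlapped between the zones. Dark zone replicate 1 was the highest array on 1447863_s_at (34.0), 1450749_a_at (26.4) and 1450750_a_at (18.8), and dark zone replicate 2 on 1433423_at (15.8).

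**Figure D1:**
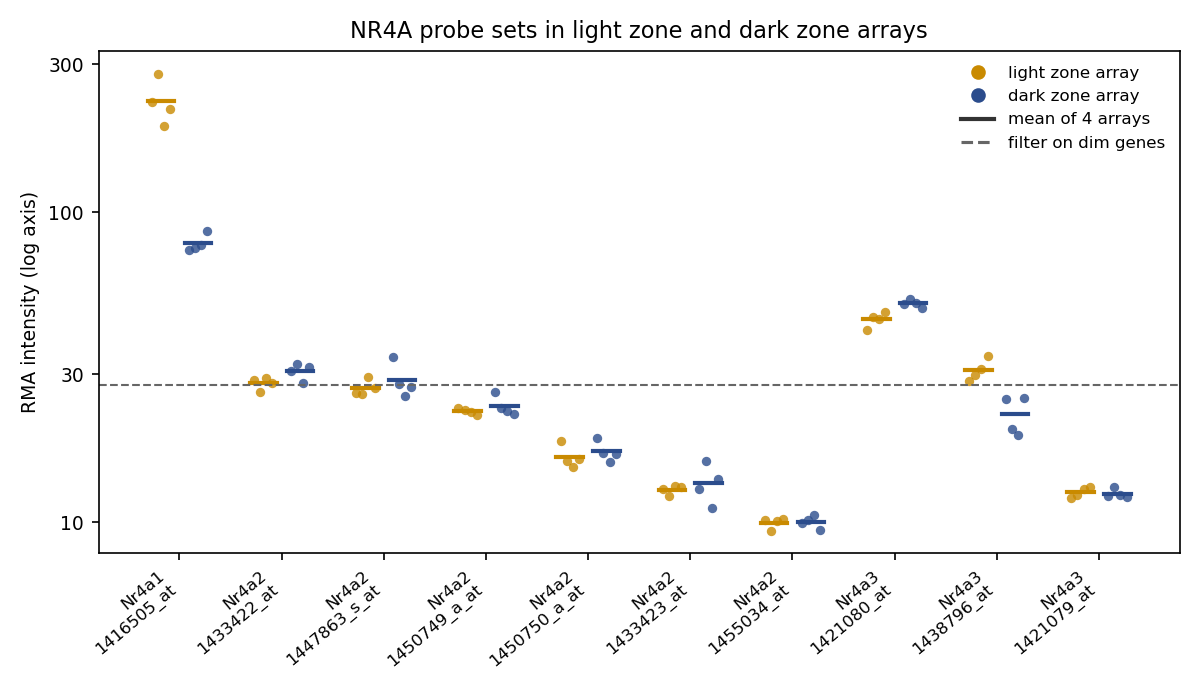
RMA intensity (log axis) of each of the 10 NR4A probe sets in the 4 light zone and 4 dark zone arrays. Points are arrays, bars are group means and the dashed line is the filter at 27.8. Nr4a1 sits between 189 and 280 in the light zone and between 75.7 and 86.8 in the dark zone, the Nr4a2 probe sets are dim in both, and 2 Nr4a3 probe sets separate the zones in opposite directions.

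Nr4a3 gave no single direction, because its probe sets disagreed. The brightest, 1421080_at, had an intensity of 41.6, 46.0, 45.3 and 47.8 in light zone replicates 1 to 4. In dark zone replicates 1 to 4 it was 50.6, 52.7, 50.9 and 49.0. The dark zone arrays all lay above the light zone arrays, by a narrow gap. The second probe set, 1438796_at, went the other way, at 28.6, 29.9, 31.1 and 34.3 in the light zone replicates. Its dark zone values were 25.1, 20.0, 19.1 and 25.2, all below the light zone arrays. The third, 1421079_at, was near the floor, at 12.5 ± 0.46 (SD, n = 4) in the light zone and 12.4 ± 0.45 (SD, n = 4) in the dark zone.

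By the brightest probe set Nr4a3 was 1.13-fold higher in the dark zone, a difference of 0.17 (SE 0.06, 95% interval 0.037 to 0.31, limma adjusted p = 0.040). The second probe set lay just below the filter, at the 48.5th percentile of the table. It was 1.40-fold higher in the light zone, a difference of -0.48 (SE 0.10), and passed in the fit over all probe sets (limma adjusted p = 0.0030). In that fit the brightest probe set did not pass (limma adjusted p = 0.076). The log2 ratio of the second probe set to the brightest changed by -0.65 from the light to the dark zone, which is given without a test because the pair was chosen for its opposite directions. Of the 6 NR4A probe sets below the filter only this 1 passed, where 5.73% of all such probe sets did. The difference of the second probe set ranged from -0.54 to -0.41 when each array was left out, and passed in all 8 of these fits. The brightest kept its call only when the array left out was light zone replicate 4 or dark zone replicate 4. The platform annotation ties the probe sets to different expressed sequence tags, and whether they detect different Nr4a3 transcripts was not tested.

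Opposite probe sets of this kind were uncommon in the table. Of 9010 named genes with at least 2 probe sets, 225 (2.5%) had probe sets whose arrays did not overlap in opposite directions. Among the 1836 genes with at least 2 non-overlapping probe sets, these were 12.3%. Nr4a3 was one of them. In the fit over all probe sets, 184 genes (2.04%) had probe sets that passed in opposite directions. Nr4a3 was not among those 184, because its brightest probe set did not pass in that fit.

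**Figure D2:**
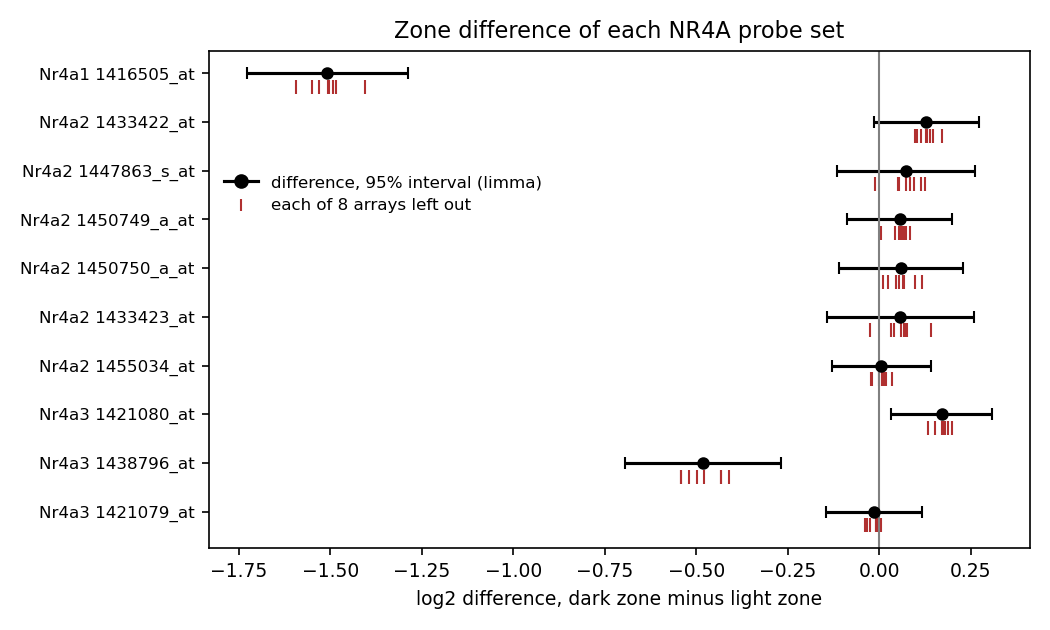
Log2 difference (dark zone minus light zone) of each NR4A probe set in the fit over all probe sets. Points are estimates from 4 against 4 arrays, bars are 95% intervals and red ticks are the estimates with each of the 8 arrays left out. Nr4a1 lies at -1.51, the 6 Nr4a2 probe sets lie between 0.0059 and 0.13, and the Nr4a3 probe sets lie at 0.17, -0.48 and -0.01.

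Among the 3 genes, Nr4a1 and Nr4a3 passed at the gene level, while 43.9% of all tested genes did. Both also had arrays that did not overlap between the zones, as had 41.3% of tested genes. Of the 10 probe sets, 2 passed in the fit over all probe sets, Nr4a1 and the second of Nr4a3, against 21.8% of the table. Arrays of the zones did not overlap for 3 of the 10, against 23.9%. These shares are too near the background to be a result about the family. The members did differ from each other. The log2 ratio of Nr4a1 to Nr4a2 fell by 1.64 from the light to the dark zone and that of Nr4a1 to Nr4a3 fell by 1.68. Each had an exact permutation p of 0.0286, the smallest that 4 against 4 arrays can give, and 0.043 after adjustment over the 3 pairs. The ratio of Nr4a2 to Nr4a3 differed by -0.04 (exact permutation p = 0.63, adjusted p = 0.63). In an alternative, each gene's most variable probe set replaced the brightest (1433423_at for Nr4a2 and the second one for Nr4a3). The ratio of Nr4a1 to Nr4a3 then fell by 1.03, and that of Nr4a2 to Nr4a3 was higher in the dark zone by 0.54. These values are given without a test, because a difference between the zones adds to the spread by which the probe sets were chosen.

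Genes listed as rapidly induced by signals mostly shared the direction of Nr4a1. This list and those below were chosen with earlier results of these data known, so their shares are descriptions and not independent tests. Of 35 listed rapidly induced genes, 29 were tested, 18 were higher in the light zone (24.8% of all tested genes were) and 4 in the dark zone (19.1% of all). Their median difference was -0.70, against -0.0057 over all tested genes. The largest were the early growth response factors Egr3 (-4.67, SE 0.10) and Egr2 (-2.67, SE 0.13), the IkB family member Nfkbid (-2.10, SE 0.12) and the proto-oncogene Myc (-2.10, SE 0.13). A dimmer probe set of Egr3 gave 0.01. The 18 also held Klf2 (-1.95) and Btg1 (-0.31), named after their values were seen. Whether the listed genes were induced by a signal in these cells was not tested. The 4 genes higher in the dark zone, listed after their values were seen, were the antiproliferative gene Btg2 (0.73), the Krüppel-like factor Klf6 (0.64), the transcription factor Csrnp1 (0.43) and the MAP kinase phosphatase Dusp5 (0.41). Fos, an AP-1 subunit, had a difference of -0.70 with an SE of 0.40 and did not pass (limma adjusted p = 0.19). Heat shock genes were examined beside Nr4a1 as a sign of handling stress. Of 9 tested, 1 was higher in the light zone, the mitochondrial co-chaperonin Hspe1 (-1.14, SE 0.31), and 1 in the dark zone, the chaperone Hsph1 (0.38, SE 0.07). Leaving out light zone replicate 4, or in another fit dark zone replicate 2, raised the count higher in the dark zone to 2. With each gene's most variable probe set 2 were higher in the light zone, and with the mean of all probe sets 2 in each zone. The median of these 9 was 0.02.

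Regulators that act on the NR4A promoters were tested from a list of 17, of which 15 passed the filter. Here 8 were higher in light zone and 3 in dark zone arrays, with a median of -0.19. That is 73.3% of them, against 43.9% of all tested genes (24.8% toward the light zone and 19.1% toward the dark zone). This list was chosen with earlier results known, and its member Srf was also counted among the rapidly induced genes. Crtc2, a coactivator of CREB, had the largest difference (-0.88, SE 0.08, limma adjusted p = 3.6e-06). The ETS factor Elk3 (-0.73, SE 0.10) and the serum response factor Srf (-0.38, SE 0.08) passed in the same direction. The other CREB coactivators, Crtc1 (-0.34) and Crtc3 (-0.34), did so too. Calcium-responsive Nfatc3 (0.45, SE 0.07) was higher in the dark zone, while Nfatc2 was at -0.28. Among the MEF2 factors, which link calcium to Nr4a1 in lymphocytes, Mef2c was at -0.26 and Mef2d at 0.23. The count higher in the dark zone was 1 in each of the fits that left out replicate 2, 3 or 4 of the light zone, or replicate 1 or 4 of the dark zone. It was also 1 with no filter, with a filter at the 25th percentile and with arrays centred on their median. Creb1 (-0.19), the gene of CREB itself, and Elk4 (0.21) each lost their call in 6 of the 8 fits that left out an array. The related Crem (-0.05) did not pass. Crtc1, Crtc3, Nfatc2, Mef2c, Mef2d, Creb1, Elk4 and Crem were named after their values were seen. In the fit over all probe sets, only some probe sets of the regulators named as higher in the light zone passed that way. It was 1 of 4 for Elk3, 1 of 3 for Crtc1, 1 of 2 for Crtc3 and 1 of 6 for Nfatc2. The highest difference among their probe sets was 0.01, -0.00052, -0.03 and 0.17, in that order. For Crtc2 and Srf it was 2 of 2 that passed, for Mef2c 4 of 5 and for Creb1 0 of 6. Mef2d kept its call only in the fit without dark zone replicate 3, and its limma adjusted p reached 0.11 in the others.

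Class IIa histone deacetylases and Cabin1, which hold MEF2 factors in check, differed by at most 0.21 in either direction by their brightest probe sets. Of 5 tested, 3 passed, or 60%, against 43.9% of all tested genes. Hdac7 (-0.21, SE 0.06) and Hdac9 (-0.17, SE 0.06) had higher light zone levels and Hdac4 (0.21, SE 0.08) a higher dark zone level. Other probe sets gave other values. A dimmer one of Hdac4 passed toward the dark zone at 0.40 in the fit over all probe sets, a second probe set of Hdac7 passed the other way at 0.21, and 1 of Hdac9 passed at 0.20. With each gene's most variable probe set, 3 of the list passed toward the dark zone and 0 toward the light zone. With the mean of all probe sets these counts were 1 and 0. The calls of Hdac9 and Hdac4 were each lost in 6 of the 8 fits that left out an array. Hdac9 kept its call without replicate 4 of the light zone and without replicate 3 of the dark zone. Hdac4 kept it without replicate 2 of the light zone and without replicate 3 of the dark zone.

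Kinases and phosphatases that relay receptor signals to the NR4A genes or proteins went both ways. Of 17 tested, 5 were higher in light zone and 3 in dark zone arrays, a share of 47.1% that lay near the 43.9% of all genes. With each gene's most variable probe set these counts were 6 and 5. Protein kinase C genes split, with Prkca (-0.64, SE 0.09) and Prkcb (-0.61, SE 0.07), the isoform that carries B cell receptor signals to NF-kB, higher in the light zone and Prkcd (0.67, SE 0.09) in the dark zone. The calcium and calmodulin dependent kinase gene Camk2d was at -0.60 (SE 0.08). Akt1, a kinase that phosphorylates NUR77, was at 0.49 (SE 0.07) and Prkacb, a catalytic subunit of protein kinase A, at 0.38 (SE 0.09). Akt1 and Prkacb were named after their values were seen.

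The retinoid X receptors, with which NUR77 and NURR1 form heterodimers, did not pass. Rxra was at -0.14 (SE 0.08, limma adjusted p = 0.17) and Rxrb at 0.05 (SE 0.07, limma adjusted p = 0.62). Rxra was dim, with a mean intensity of 40.7 in light zone and 37.0 in dark zone arrays, where differences are understated. Rxrg was too dim to test. Of 15 tested coregulators of nuclear receptors, dark zone levels were higher for 3 and light zone levels for 1, which is 26.7% against 43.9% of all genes. They were the CoREST corepressor gene Rcor1 (0.32, SE 0.08), the coactivator Ncoa3 (0.20, SE 0.06), the acetyltransferase Crebbp (0.16, SE 0.06) and the deacetylase Hdac3 (-0.16, SE 0.06). Only the call of Rcor1 held in all 8 fits that left out an array. Ncoa3 lost its call when replicate 2 of the light zone or replicate 4 of the dark zone was left out (limma adjusted p up to 0.072), Crebbp kept it only without light zone replicate 1 or without dark zone replicate 3 (up to 0.13), and Hdac3 only without dark zone replicate 3 (up to 0.12).

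**Figure D3:**
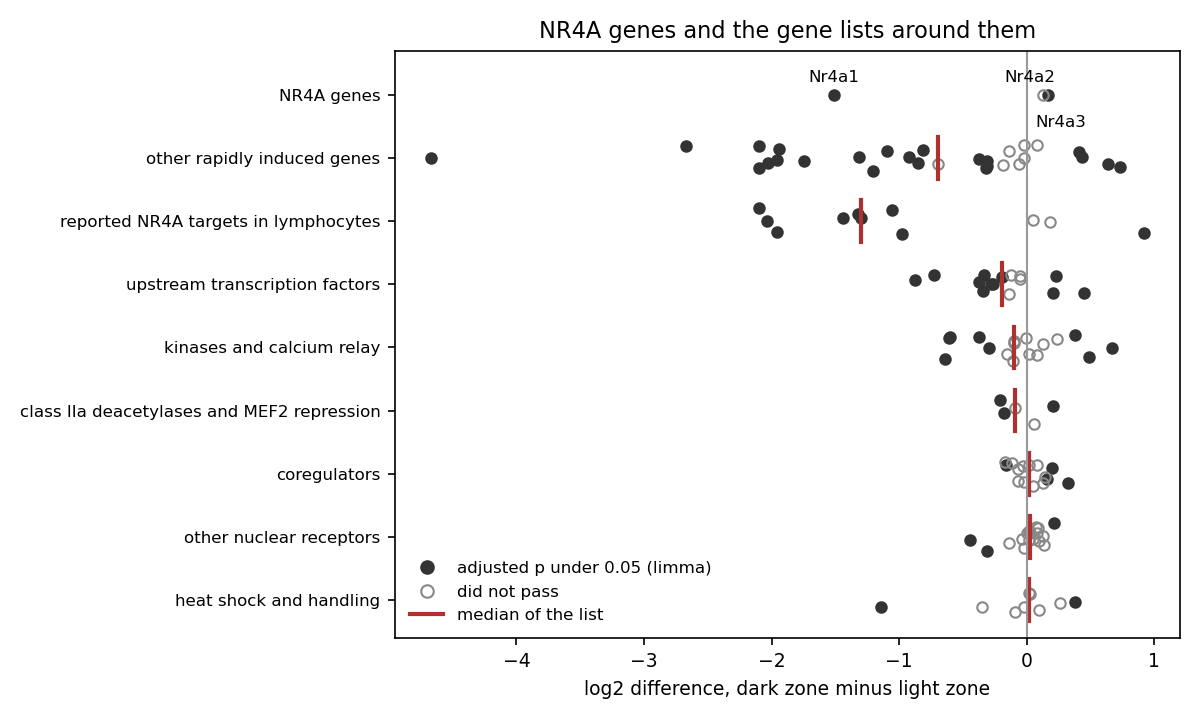
Log2 difference (dark zone minus light zone) of the NR4A genes by their brightest probe sets and of the tested members of 8 gene lists, 1 point per gene. Filled points passed at a limma adjusted p under 0.05 and red bars are list medians. The rapidly induced genes (median -0.70) and the reported NR4A targets (median -1.30) lie toward the light zone, and coregulators, other nuclear receptors and heat shock genes lie around 0.

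Genes reported as NR4A targets in lymphocytes were mostly either too dim to test or higher in the light zone. The list mixes genes that the factors are reported to raise with genes they are reported to lower, and most reports are from T cells. Of 22 listed genes, 20 had a probe set and 9 of these were below the filter, among them Pdcd1, Havcr2, Ikzf2, Lag3 and Foxp3, which mark T cell states. Of the 11 tested, 8 were higher in light zone arrays and 1 in dark zone arrays, with a median of -1.30. Together these are 81.8% of the tested members, against 43.9% of all tested genes (24.8% toward the light zone). The share is a description, because the list was chosen with earlier results of these data known. Its member Myc was also counted among the rapidly induced genes. Myc, Irf4 (-2.03, SE 0.09) and Batf (-1.96, SE 0.07), transcription factors of activated B cells, and the survival gene Bcl2 (-1.44, SE 0.12) led the list. A dimmer probe set of Irf4 gave -0.19 and did not pass in the fit over all probe sets. NR4A factors are reported to hold down Batf and Myc in B cells, and both RNAs were higher in the zone where Nr4a1 was higher. Whether the receptors act on these genes in these cells was not tested. The T cell contact genes Cd86 (-1.30, SE 0.07) and Icam1 (-0.98, SE 0.08), named after their values were seen, shared this direction. Bcl2l11, which encodes the death factor BIM, was higher in the dark zone (0.92, SE 0.06). Without dark zone replicate 3, 2 genes of this list were higher in the dark zone. Ccl4, which encodes a chemokine that activated B cells secrete, lay at 0.05 (SE 0.09, limma adjusted p = 0.69). Its signal was dim, with a mean intensity of 32.0 in light zone and 33.2 in dark zone arrays.

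The genes with the array profile closest to each receptor were found by the root mean square difference between log2 values over the 8 arrays, each gene centred on its own mean. For Nr4a1 the nearest were the kinase gene Sbk1 (0.11), Qtrt2, a subunit of the enzyme that inserts queuosine into tRNA (0.12), Themis2, a signalling adaptor of B cells and macrophages (0.12), Tm6sf1 (0.13) and the vesicle protein gene Syngr2 (0.14), where the median distance over tested genes was 0.77. Zone differences of these 5 ran from -1.60 to -1.37. A dimmer probe set of Qtrt2 gave -0.0025. For Nr4a2 the nearest were Cttnbp2 (0.03), Prtn3 (0.03), Cog3 (0.03), Pld2 (0.04) and Soga1 (0.04), and for the brightest probe set of Nr4a3 they were Jchain (0.02), Ripor3 (0.03), Usp2 (0.03), E2f8 (0.04) and Polr2a (0.04), against medians of 0.16 and 0.17. Both of these receptors varied little between arrays, so most genes lay close to them. The distances are a description of 8 arrays in 2 groups and were not tested.

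**Figure D4:**
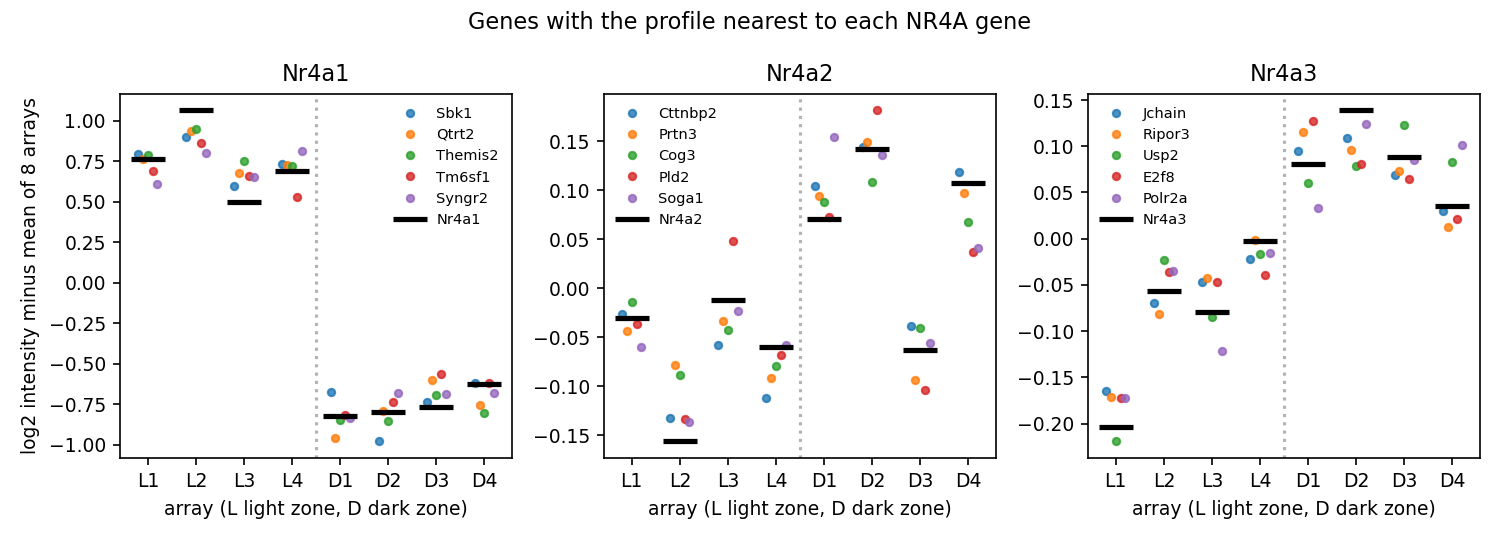
Log2 intensity minus the gene's mean over 8 arrays, for each NR4A gene (black bars) and the 5 genes with the nearest profile (points), by array. The vertical scales differ: Nr4a1 and its neighbours split by zone between about 1 and -1, whereas Nr4a2 and Nr4a3 vary by a small part of that.

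Markers of other cells were examined beside the Nr4a1 result, since a sorted population can hold other cells and since, in bulk RNA, a change in the number of expressing cells and a change per cell cannot be told apart. Of 13 measured T cell markers, 4 were above the filter, namely Cd2, Cd4, Icos and the receptor subunit gene Cd3e (mean intensity 38.4 in light zone and 37.0 in dark zone arrays). The subunit genes Cd3d and Cd3g were below it in both zones. The summed intensity of this list was 603 to 651 in light zone arrays and 733 to 919 in dark zone arrays, and Cd2 (0.70), which B cells of mice also express, was the only member that passed. Of 14 myeloid markers, 5 were above the filter, with sums of 478 to 572 in light zone arrays and 527 to 1343 in dark zone arrays, and 3 passed. The lysozyme gene Lyz2 (2.98), which made up most of the difference between the sums, and the receptor gene Csf1r (0.40) were higher in the dark zone, while the lysosomal gene Cd68 (-0.40, SE 0.09, limma adjusted p = 0.0039) was higher in the light zone, as Nr4a1 was. The part of T cell or myeloid RNA in the Nr4a1 difference was not tested. Stromal and endothelial markers (2 of 8 above the filter) summed to 210 to 224 in light zone and 200.5 to 221 in dark zone arrays. Genes of naive and memory B cells moved with Nr4a1: all 4 measured (Ccr6, Gpr183, Fcer2a and Cr2) were higher in the light zone, with sums of 4788 to 5173 against 1434 to 1801. Plasma cell genes summed to 10766 to 12083 in light zone and 11732 to 12276 in dark zone arrays. Of these, Irf4 and Prdm1 (-1.37) passed toward the light zone. The brightest, the antibody joining chain gene Jchain (0.15), passed toward the dark zone (limma adjusted p = 0.0495). Prdm1 had a mean intensity of 45.0 in light zone and 17.5 in dark zone arrays. Only its light zone level carried it over the filter of 27.8. The sort for CD38 negative, CD95 positive cells selects against naive and memory B cells. The part of naive, memory or plasma cell RNA in the Nr4a1 difference was not tested.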

How the data were processed

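Total RNA of each sorted sample was converted to biotin-labelled cRNA (Affymetrix 3' IVT Express chemistry) and hybridised to 1 mouse expression array, per the labels' protocols. The deposited values are intensities on a linear scale, which the authors made with RMA per the submitters' processing notes, whose version is not given in the sources used here. Because RMA equalises the arrays, a zone-wide shift in RNA content would be invisible, and differences of dim genes are compressed. No detection calls were used.

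Log2 values were taken with no pseudocount. Of 45037 probe sets, 34945 have 1 gene symbol, 932 have several, which were left without a gene name, and 9160 have none here. Symbols were matched to a gene table of assembly GRCm38.p6 by gene identifier, and 0 changed. The brightest probe set stood for each of 18193 genes, and a gene was tested where it reached the 50th percentile of probe set means. Zones were compared with lmFit and eBayes of limma 3.58.1, run in R 4.3.3 (two-sided, Benjamini-Hochberg adjusted p under 0.05), without a replicate block. A second fit covered all probe sets. Ratios between members were compared by exact permutation. The number of arrays limits the precision. Whether replicates came from separate animals is not given, so p-values measure the spread between these samples, which may be technical in part. The fit was tested on simulated data.

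The members and gene lists were chosen with earlier results of these data known. Named genes are the members, up to 4 passing genes with the largest difference in each list, the retinoid X receptors, the 5 nearest profiles of each member and the 2 genes of the gate. Other genes are named where a count of 5 or fewer or a marker list called for it. Listed genes with no probe set of their own were not analysed here. Alternatives varied the filter, the probe set of a gene, the normalization, a pseudocount of 16, the variance model, array weights, the replicate block and single arrays left out. Plots were made in Python 3.11.15 with matplotlib 3.10.9.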

Additional observations from a re-analysis of the deposited data

How the results depend on the processing

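The Nr4a1 difference kept its direction and passed in all 18 alternatives (-1.59 to -1.34), and Nr4a2 failed to pass in all 18 (0.06 to 0.17). The Nr4a3 result depends on the probe set: it was -0.48 with the probe set of largest standard deviation and -0.11 (limma adjusted p = 0.19) with the mean of its 3 probe sets. The former lay below the filter and is given without a test here, because a zone difference adds to that standard deviation. With the brightest probe set the Nr4a3 difference did not pass with no filter (0.17) or a filter at the 25th percentile (0.17). Nor did it pass with arrays centred on their median (0.15), a pseudocount of 16 (0.13) or a trended robust prior (0.17). It ranged from 0.13 to 0.20 with each array left out and passed in 2 of those 8 fits. The ratio of Nr4a2 to Nr4a3 turned to 0.17 with averaged probe sets and to 0.54 with those of largest standard deviation, and ranged from -0.083 to 0.0080 with each array left out. The sign of 4 dim probe sets that did not pass turned when an array was left out: 1421079_at of Nr4a3 (-0.040 to 0.0040), and of Nr4a2 1433423_at (-0.026 to 0.14), 1447863_s_at (-0.012 to 0.13) and 1455034_at (-0.022 to 0.035). The last was also at -0.017 with arrays centred and -0.0059 with quantile normalization. Genes passing numbered 4083 to 4911 over the alternatives.

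The labels give both zones replicate numbers 1 to 4. Deviations of same-numbered arrays correlated at 0.13, 0.19, 0.06 and 0.24. The arrays of replicates 1, 2 and 4 correlated best with their own number in both directions, and those of replicate 3 did not. Because of replicate 3 the numbers were not taken as pairs, though pairing stays possible. With the replicate block 4787 genes passed, the Nr4a3 difference of 0.17 did not (limma adjusted p = 0.051), and Nr4a1 (limma adjusted p = 5.9e-06) and Nr4a2 (0.16) kept their side of the threshold. Low signal limits what can be said of Nr4a2 and of the dim probe sets of Nr4a3.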

Other observations

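Most other nuclear receptors were dim or did not pass the test. Of 46 listed, 41 had a probe set of their own, 24 of these were below the filter and 17 were tested. Of the 17, 2 were higher in the light zone: Nr2f6 (-0.45, SE 0.09), an orphan receptor that limits lymphocyte activation, and Esrra (-0.31, SE 0.07), a regulator of mitochondrial genes. Nr2c2 (0.21, SE 0.08) was higher in the dark zone, a call that held only in the fits without light zone replicate 1 or without dark zone replicate 4. The 6 probe sets of Nr2c2 ran from -0.11 to 0.73, and 2 passed toward the dark zone. The share that passed was 17.6%, against 43.9% of all tested genes, and the median difference was 0.03. Nr4a1 lay at -1.51, outside the range of these 17 receptors by their brightest probe sets (-0.45 to 0.21), whereas the brightest probe sets of Nr4a2 and Nr4a3 lay inside it. The receptors that bind glucocorticoids (Nr3c1, 0.10) and retinoic acid (Rara, 0.13) did not pass. Many of the 17 were dim, such as Rara (mean intensity 30.7 in light zone and 33.8 in dark zone arrays) and Hnf4a (28.6 and 29.2). Differences of dim genes are understated on these arrays, which limits what the share and the range show.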
